A study of Mus musculus with 6 samples.

Results

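The genes described are 43 enzymes and receptors of xenobiotic metabolism, taken by symbol from a table of 17025 genes and all present in it. They comprised 12 oxidising enzymes, 6 epoxide hydrolases and carbonyl reductases, 19 glutathione transferases, 4 enzymes of glucuronidation and sulfation, and the aryl hydrocarbon receptor with its partner, 2 genes. RNA-seq was done on epidermal progenitor cells of newborn mice at postnatal day 0, sorted by FACS for integrin α6, which anchors basal keratinocytes to the basement membrane. The libraries labelled cKO (conditional knockout), n = 3, came from mice of genotype K14Cre,Ash2lF/F, with both alleles of Ash2l floxed. Those labelled control, n = 3, came from K14Cre,Ash2lF/+ mice, which carry the same Cre transgene and 1 floxed allele. The keratin 14 promoter drives Cre in basal keratinocytes, so cells that neither express it nor descend from cells that did keep their floxed alleles, and the controls are heterozygous where Cre has acted rather than wild type. ASH2L is a core subunit of the complexes that methylate lysine 4 of histone H3. Whether every library is from its own animal is not stated in the labels. The p-values therefore reflect variation among 6 libraries, which may be technical.

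Cells clear foreign and self-made lipophilic compounds in steps. Cytochromes P450, aldehyde oxidases and aldehyde dehydrogenases oxidise them, and epoxide hydrolases and carbonyl reductases act on the products. Glutathione transferases, UDP-glucuronosyltransferases and sulfotransferases then attach a polar group, and export pumps carry the conjugate out. The aryl hydrocarbon receptor, paired with ARNT, switches on part of this set when it binds planar aromatic ligands, and in keratinocytes many of the same enzymes also handle retinoids and the lipids of the skin barrier.

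The targeted gene went against the labels. Ash2l was at 30.9, 29.5 and 22.9 FPKM (fragments scaled by gene length and library total) in the libraries labelled cKO 1, 2 and 3, against 12.4, 18.1 and 15.9 FPKM in those labelled control 1, 2 and 3. The log2 difference was 0.81 (SE 0.19, limma adjusted p = 0.0240), and p was 0.1 in an exact permutation test (two-sided), the lowest possible with 3 libraries against 3. Without the library labelled cKO 1, cKO 2, control 1 or control 3 the adjusted p of Ash2l was 0.0828, 0.0808, 0.0564 or 0.0670. A gene total does not show whether a floxed exon was lost, and every direction given here is drawn from these labels.

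Depth was 33622416 to 36027550 fragments for libraries labelled cKO, against 31578875 to 33053422 for the controls. Some libraries stood apart from the rest of their group. A list of 18 hepatocyte genes, chosen after the values were seen, summed to 393 FPKM in control 2 and to between 0.795 and 5.51 FPKM in the other 5 libraries. Albumin alone was at 130 FPKM in control 2. Control 1 held 1160 FPKM of 8 immediate-early genes, also chosen after the values were seen, against 133 to 193 FPKM in the others. The library labelled cKO 3 had 67973 FPKM of 7 spinous markers, against 34644 and 35422 FPKM in cKO 1 and 2 and 4591 to 6443 FPKM in the libraries labelled control. Krt1 and Krt10 carry that sum, at 26575 and 36869 FPKM in cKO 3. Of the 7, Krt1, Krt10, Krtdap and Dsg1a were called higher and none lower, with a median log2 difference of 1.46. Dsc1 and Calml3 overlapped between groups. Sbsn was at 67.3, 70.4 and 89.1 FPKM in the libraries labelled cKO, against 103, 113 and 90.4 FPKM in the controls, without passing. The 9 basal markers were abundant throughout, with sums of 8086 to 10477 FPKM in the libraries labelled cKO, against 5043 to 8762 FPKM in the controls. Keratin genes carry that sum, and of the 9 Krt15 was called higher and the integrins Itgb4 and Itgb1 lower, with a median log2 difference of -1.09. Itga6, which encodes the sorted integrin, was at 53.6, 53.0 and 19.7 FPKM in the libraries labelled cKO, against 162, 78.8 and 72.0 FPKM in the controls, without passing (limma adjusted p = 0.0710). The 8 granular markers summed to 152 to 212 FPKM in the libraries labelled cKO, against 210 to 420 FPKM in the controls. Of these Flg, Cst6 and Tgm3 were called higher and Sprr1a and Tgm1 lower, with a median of 1.32, and Sprr1a, at 45.1, 40.7 and 29.8 FPKM in the libraries labelled cKO against 163, 327 and 209 FPKM in the controls, sets the direction of the sum. All 11 melanocyte markers were called lower, with sums of 179 to 380 FPKM in the libraries labelled cKO, against 2898 to 3319 FPKM in the controls. The 10 fibroblast markers summed to 264 to 944 FPKM in the libraries labelled cKO, against 1194 to 1756 FPKM in the controls. Vim, which melanocytes also express, was the 1 called and was lower. The other 9 summed to 469, 434 and 152 FPKM in the libraries labelled cKO, against 108, 188 and 373 FPKM in the controls, with overlap, and the median difference of the 10 was 0.64. Endothelial markers, 5 genes, reached at most 6.91 FPKM in sum and immune markers, of which 5 were listed, at most 3.32 FPKM. The part of these cell types in the results was not tested. In bulk RNA, fewer cells of a type and less RNA per cell cannot be told apart.

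A gene was tested where its mean over the 6 libraries was at least 1 FPKM, and called where its adjusted p was under 0.05. Of the 11603 genes tested, 19.5% were called, 5.87% with a higher and 13.6% with a lower level in cKO-labelled libraries. Of the 43 enzymes and receptors, 35 were tested and 16 were called. The 11 called higher were Cyp2b10, Cyp2s1, Cyp2w1, Aox4, Aldh3b2, Gsto1, Gstt3, Mgst2, Mgst3, Ugt1a1 and Ugt1a7c, which is 31.4% of those tested. The 5 called lower were Aldh3b1, Ephx1, Gstm1, Gstp1 and Gstp2, which is 14.3%. The median log2 difference of the 35 was 0.50, beside -0.17 over all genes tested. Scaling the libraries by the median of ratios raised the median of all genes by 0.20, to 0.03. Under that scaling 51.1% of all calls were higher, beside 30.2% as deposited, and for the enzymes 70.6%, beside 68.8%. Without control 2, which carried the hepatocyte transcripts, 5 enzymes were called higher and 3 lower among 34 tested, beside 3.40% and 6.15% of all genes tested. Without cKO 3 the counts were 8 and 5, beside 6.11% and 12.4% of all genes tested, and without control 1 they were 9 and 5, beside 4.63% and 9.32%.

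The 8 genes below the filter were Cyp1a1, Cyp1b1, Aox1, Aldh3a1, Gstm7, Gsto2, Gstt1 and Sult1a1. Of all 43, 17 had groups that did not overlap with the libraries labelled cKO higher, and 9 with those lower. Among the 35 tested these were 16 and 7, and over all genes tested the shares were 12.0% and 30.9%. The library labelled cKO 3 held the highest value of the 6 for 16 genes and control 2 for 9. Among the 11 called higher, cKO 3 was the highest of its group for 9.

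**Figure D1:**
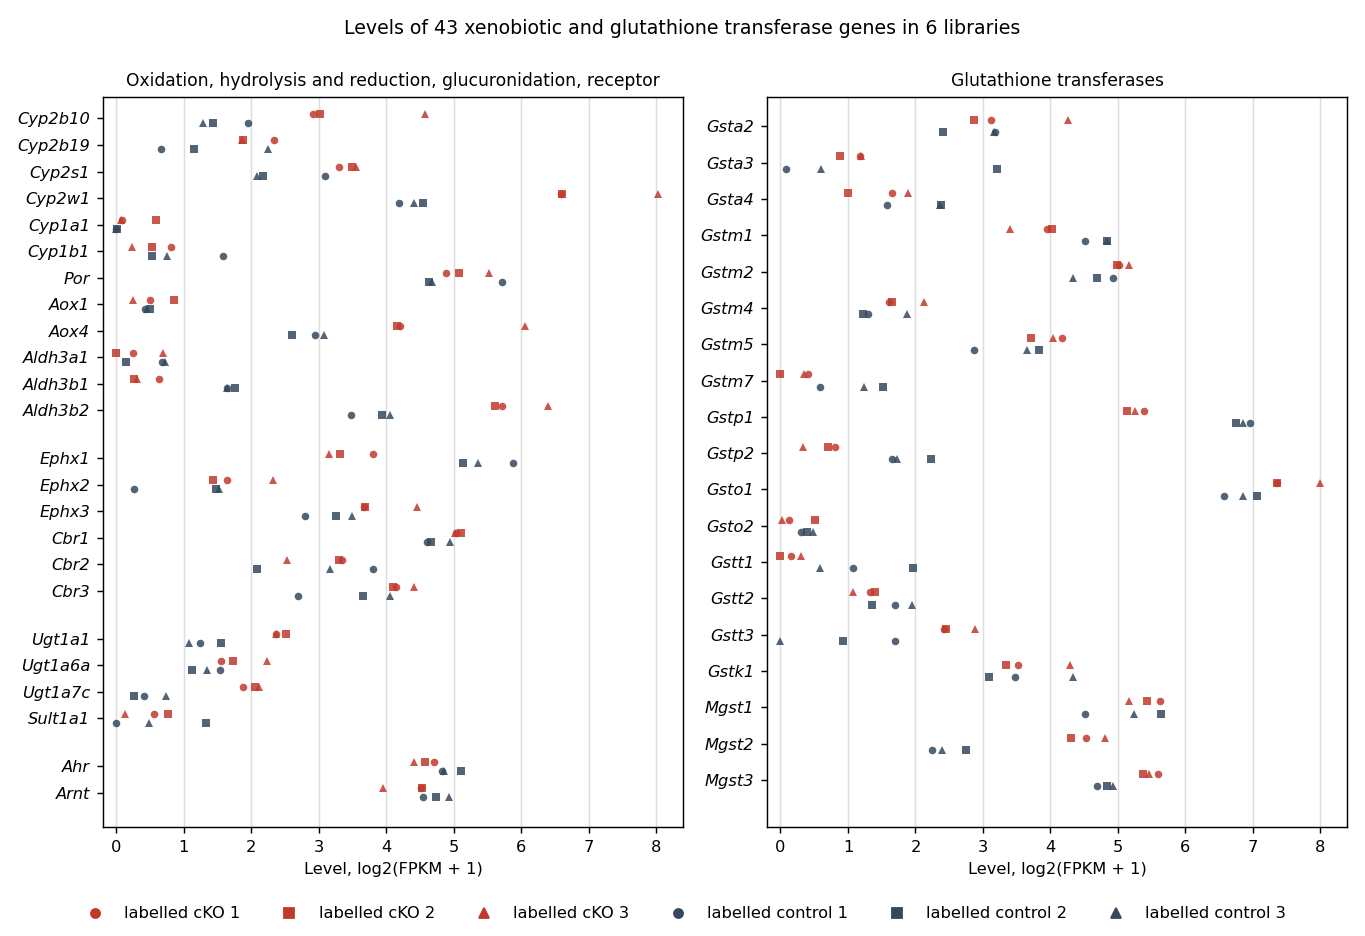
Levels of the 43 genes on a log2(FPKM + 1) axis, 1 symbol per library, with the libraries labelled cKO in red above those labelled control in blue-grey for each gene. Cyp2w1, Aldh3b2 and Mgst2 show the 3 libraries labelled cKO to the right of all controls, Gstp1 and Ephx1 show them to the left, and Gsta3 shows control 2 alone at the right.

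The start regions of 4 genes are shown because they belong to the largest rise on the log2(FPKM + 1) scale (Cyp2w1), the rise (Mgst2) and the fall (Gstp1) with the smallest adjusted p, and Cyp1a1, the textbook target of the aryl hydrocarbon receptor. Each is the 250 bases before the RefSeq start site in GRCm38.p6, read 5′ to 3′ on the gene's strand, and the deposited values themselves were made on GRCm39. Capitals mark GCGTG, the core that the receptor and ARNT bind, or its reverse complement.
Cyp2w1, chr5:139352366-139352615, plus strand: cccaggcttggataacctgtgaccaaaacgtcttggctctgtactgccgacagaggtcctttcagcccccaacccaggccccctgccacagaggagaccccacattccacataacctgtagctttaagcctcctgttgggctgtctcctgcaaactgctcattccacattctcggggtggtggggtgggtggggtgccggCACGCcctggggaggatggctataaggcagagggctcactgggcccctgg
Mgst2, chr3:51660929-51661178, plus strand: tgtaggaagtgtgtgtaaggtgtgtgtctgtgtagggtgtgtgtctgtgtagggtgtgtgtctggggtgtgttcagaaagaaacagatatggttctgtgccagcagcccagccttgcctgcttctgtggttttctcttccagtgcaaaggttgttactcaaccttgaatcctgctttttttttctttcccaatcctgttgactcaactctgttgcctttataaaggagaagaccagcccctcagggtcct
Gstp1, chr19:4037913-4038162, minus strand: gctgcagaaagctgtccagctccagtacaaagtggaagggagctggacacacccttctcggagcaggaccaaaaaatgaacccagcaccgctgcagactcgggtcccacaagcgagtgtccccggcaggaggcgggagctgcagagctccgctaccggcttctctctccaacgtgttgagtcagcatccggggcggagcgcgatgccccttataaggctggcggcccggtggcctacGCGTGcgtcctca
Cyp1a1, chr9:57697363-57697612, plus strand: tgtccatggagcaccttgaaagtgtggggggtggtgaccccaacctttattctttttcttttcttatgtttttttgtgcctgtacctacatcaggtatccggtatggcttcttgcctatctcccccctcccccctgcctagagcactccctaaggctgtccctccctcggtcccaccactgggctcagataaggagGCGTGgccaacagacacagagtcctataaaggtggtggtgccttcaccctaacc
RefSeq start regions were found for 37 of the 43 genes. Some genes have more than 1, which makes 43 regions in all. GCGTG on either strand lay in 14 of these regions, of 13 genes, which is 32.6% of the regions, beside 28.2% of 32851 start regions of the same length over the genome. The antioxidant response core TGACNNNGC, bound by NRF2 with small MAF proteins, lay in 5 of the 43 regions, 11.6%, beside 10.2%. None of the 4 windows shown holds TGACNNNGC, so the 2 motifs could not overlap there. A match describes letters and not a bound site.

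Of 8 oxidising enzymes tested, 5 were called higher (62.5%) and 1 lower (12.5%), beside 5.87% and 13.6% of all genes tested. The count of 5 fell to 2 without control 2, without control 3 or with no filter on low values. The summed level of all 12 was 214, 215 and 490 FPKM in the libraries labelled cKO 1, 2 and 3, against 102, 75.1 and 80.2 FPKM in those labelled control 1, 2 and 3. Cyp2w1, a cytochrome P450 found mainly outside the adult liver, was the most abundant of them on average over the 6 libraries. Its level was 95.6, 95.9 and 259 FPKM in the libraries labelled cKO, against 17.3, 22.3 and 20.2 FPKM in those labelled control, here and below in the order 1, 2, 3. The groups did not overlap and cKO 3 was highest. The log2 difference was 2.69 (SE 0.36, limma adjusted p = 0.00351), with means 7.53-fold apart, and it was 2.22 without cKO 3 and 2.77 without control 2. The sum of the spinous markers, carried by Krt1 and Krt10, was also highest in cKO 3. The part of the spinous markers in these rises was not tested. Aldh3b2, an aldehyde dehydrogenase that oxidises fatty aldehydes in mice, had the second highest mean. Its values were 51.3, 48.0 and 83.4 FPKM in the libraries labelled cKO and 10.1, 14.3 and 15.6 FPKM in those labelled control, without overlap. The difference was 2.09 (SE 0.25, adjusted p = 0.00235). Its neighbour Aldh3b3, whose gene model overlaps it in GRCm38, stood at 1.40, 0.927 and 1.29 FPKM in the cKO-labelled libraries, against 0.0145, 1.56 and 0.990 FPKM in the control-labelled ones, all far under the level of Aldh3b2.

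Aldh3b1, the related enzyme of the same family, fell. It was at 0.544, 0.198 and 0.241 FPKM in the libraries labelled cKO, against 2.12, 2.39 and 2.13 FPKM in those labelled control. The controls lay close together and above every library labelled cKO (log2 difference -1.28, SE 0.22, adjusted p = 0.00815). Per length and within a library, Aldh3b2 exceeded Aldh3b1 by ratios of 94.2, 242 and 347 in the libraries labelled cKO and of 4.78, 5.97 and 7.33 in those labelled control. The ratios in the libraries labelled cKO rest on 38, 14 and 18 fragments of Aldh3b1.

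Aox4, a molybdenum aldehyde oxidase that turns retinal into retinoic acid in mice, rose. Its levels were 17.4, 16.8 and 65.8 FPKM in the libraries labelled cKO and 6.72, 5.09 and 7.44 FPKM in those labelled control. The groups were apart, with cKO 3 far above the other two (1.93, SE 0.48, adjusted p = 0.0299). The call was lost without control 1, 2 or 3, at adjusted p = 0.0770, 0.0996 and 0.0737. Cyp2b10, which the receptor CAR induces in mouse liver, stood at 6.54, 7.09 and 22.9 FPKM in the cKO-labelled libraries, against 2.88, 1.69 and 1.43 FPKM in the control-labelled ones. Here too cKO 3 was the highest and no values overlapped (1.95, SE 0.45, adjusted p = 0.0223). Without control 2 or 3 its adjusted p was 0.0784 or 0.0771. In limma-voom, fitted to fragments, its adjusted p was 0.0574, and 0.0597 with median of ratios. Cyp2s1, an epithelial P450 that metabolises retinoic acid, was at 8.81, 10.2 and 10.7 FPKM in the libraries labelled cKO, against 7.56, 3.49 and 3.26 FPKM in those labelled control. Control 1 came close to the libraries labelled cKO. The difference of 0.99 (SE 0.29) barely passed at adjusted p = 0.0473 and did not pass without cKO 1 (0.0891), cKO 2 (0.117), cKO 3 (0.0907), control 2 (0.147) or control 3 (0.141).

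Por, the reductase that hands electrons to all microsomal P450s, was abundant in both groups. It measured 28.5, 32.7 and 44.8 FPKM in the libraries labelled cKO and 51.5, 23.7 and 24.6 FPKM in those labelled control, where control 1 was highest. The difference was 0.15 (95% interval -0.57 to 0.87, adjusted p = 0.760). Cyp2b19, a keratinocyte P450 that epoxidises arachidonic acid, overlapped between groups, with 4.05, 2.67 and 2.63 FPKM in the cKO-labelled libraries, against 0.578, 1.21 and 3.77 FPKM in the control-labelled ones (0.67, SE 0.40, adjusted p = 0.275). The other 4 oxidising enzymes were not tested. Cyp1a1 had 6, 48 and 5 fragments in the libraries labelled cKO and 0, 1 and 0 in those labelled control, or 0.0640, 0.506 and 0.0498 FPKM in the cKO-labelled libraries, against 0, 0.0109 and 0 FPKM in the control-labelled ones. A count of 0 allows up to 0.0341 FPKM in control 1 and 0.0328 FPKM in control 3, for counting error only. Cyp1a1, whose printed start region holds the receptor's core, was thus near 0 in all 6 libraries, with cKO 2 highest. On these few fragments its groups did not overlap, with the libraries labelled cKO higher. Cyp1b1, another target of the receptor, averaged 0.457 ± 0.286 FPKM in the libraries labelled cKO and 1.04 ± 0.823 FPKM in those labelled control (SD, n = 3, as for every ± below), with control 1 highest. Aox1 averaged 0.472 ± 0.316 FPKM in cKO-labelled and 0.373 ± 0.0384 FPKM in control-labelled libraries. Aldh3a1, a corneal aldehyde dehydrogenase, averaged 0.266 ± 0.317 FPKM in the libraries labelled cKO and 0.448 ± 0.301 FPKM in those labelled control.

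**Figure D2:**
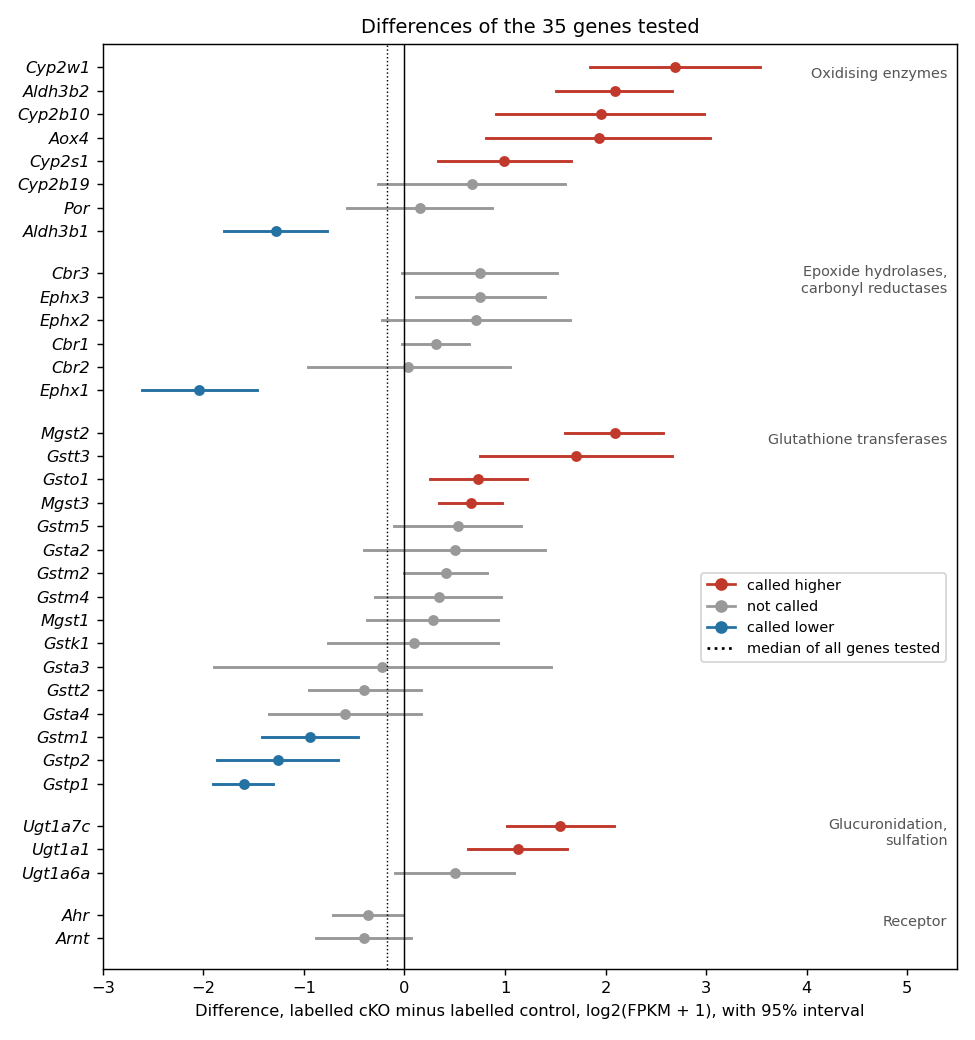
Log2 differences, libraries labelled cKO minus libraries labelled control, of the 35 genes tested, with limma's 95% intervals, by class. Points right of 0 are higher in the libraries labelled cKO. The 11 red genes were called higher and the 5 blue genes lower, and the dotted line at -0.17 is the median of all genes tested.

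Among 6 tested enzymes that act on epoxides and carbonyls, 1 was called, lower, which is 16.7%, beside 13.6% of all genes tested. It was the microsomal epoxide hydrolase, and the other 5 did not pass the test. Ephx1, which opens reactive epoxides made by P450s, was at 12.9, 8.95 and 7.85 FPKM in the libraries labelled cKO, against 57.8, 34.2 and 40.1 FPKM in those labelled control. The lowest control was well above the highest library labelled cKO. The difference was -2.04 (SE 0.25, limma adjusted p = 0.00238), with means 4.45-fold apart, and it was between -2.23 and -1.83 when any 1 library was left out. Melanocyte markers were lower in the same libraries, with the sums given above, and their part in the fall of Ephx1 or of the glutathione transferases called lower was not tested. Ephx3, an epidermal hydrolase of fatty acid epoxides for the lipid barrier, stood at 11.7, 11.8 and 20.9 FPKM in the cKO-labelled libraries, against 5.95, 8.50 and 10.3 FPKM in the control-labelled ones. Its groups did not overlap, and yet it did not pass (0.75, SE 0.28, adjusted p = 0.0970). Ephx2, the soluble hydrolase, averaged 2.60 ± 1.22 FPKM in the libraries labelled cKO and 1.28 ± 0.938 FPKM in those labelled control (SD, n = 3), with adjusted p = 0.245.

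The carbonyl reductases, which turn ketones and quinones into alcohols, did not pass the test. Cbr1 was at 31.7, 33.4 and 31.4 FPKM in the libraries labelled cKO and 23.3, 24.4 and 29.8 FPKM in those labelled control. The groups were apart by a small step, with 0.31 (SE 0.14) at adjusted p = 0.166, and the gene was called once libraries were scaled by the median of ratios, at 0.53. Cbr3 stood at 16.6, 16.1 and 20.3 FPKM in the cKO-labelled libraries, against 5.43, 11.6 and 15.7 FPKM in the control-labelled ones. Again the groups did not overlap and the controls spread widely (0.75, SE 0.33, adjusted p = 0.154). Cbr2 averaged 7.61 ± 2.45 FPKM in the libraries labelled cKO and 8.05 ± 4.84 FPKM in those labelled control (0.04, SE 0.43, adjusted p = 0.957).

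Among the glutathione transferases some genes rose and others fell. The 19 genes summed to 416, 383 and 507 FPKM in the libraries labelled cKO, against 355, 425 and 401 FPKM in those labelled control, with overlap. Of 16 tested, 4 were called higher (25.0%) and 3 lower (18.8%), beside 5.87% and 13.6% of all genes tested, and the median difference was 0.31. The 4 became 1 without cKO 1 or control 2 and 2 without cKO 2, cKO 3 or control 3, with no filter or in limma-voom, and the 3 became 1 without control 2 or in limma-voom with median of ratios. Gstp1, the pi class enzyme typical of epithelia, measured 40.7, 34.0 and 37.1 FPKM in the libraries labelled cKO and 123, 107 and 115 FPKM in those labelled control. Each group was tight and the gap between them wide. The log2 difference of -1.60 (SE 0.13, limma adjusted p = 7.47e-04) had the smallest adjusted p of the 35 genes. Gsto1, the omega class enzyme that reduces dehydroascorbate, was the most abundant transferase in the libraries labelled cKO, at 163, 163 and 253 FPKM, against 94.2, 133 and 115 FPKM in those labelled control. The groups did not overlap, but the call (0.73, SE 0.21, adjusted p = 0.0444) was lost without any 1 of the 6 libraries, at adjusted p between 0.0574 and 0.117.

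Gstp1 made up 8.66 ± 1.25% of the summed FPKM of the 19 genes in the libraries labelled cKO and 29.5 ± 4.81% in those labelled control (SD, n = 3). Gsto1 made up 43.9 ± 5.41% in the libraries labelled cKO and 28.9 ± 2.39% in those labelled control. In every library labelled cKO there was more Gsto1 than Gstp1 per length, with ratios of 4.02, 4.79 and 6.81, whereas the controls had 0.765, 1.24 and 1.00. Gstp2, a close copy of Gstp1, was at 0.751, 0.625 and 0.258 FPKM in the libraries labelled cKO, against 2.15, 3.70 and 2.31 FPKM in those labelled control. The groups were apart (-1.26, SE 0.26, adjusted p = 0.0150), and without control 2 the adjusted p was 0.0507. The libraries labelled cKO held 19, 16 and 7 fragments of Gstp2, against 51, 92 and 57 in the controls. Its call was also lost in limma-voom (0.0787) and in limma-voom with median of ratios (0.101). Gstp1 and Gstp2 are neighbours on chromosome 19, and near-identical reads between them make the split uncertain.

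**Figure D3:**
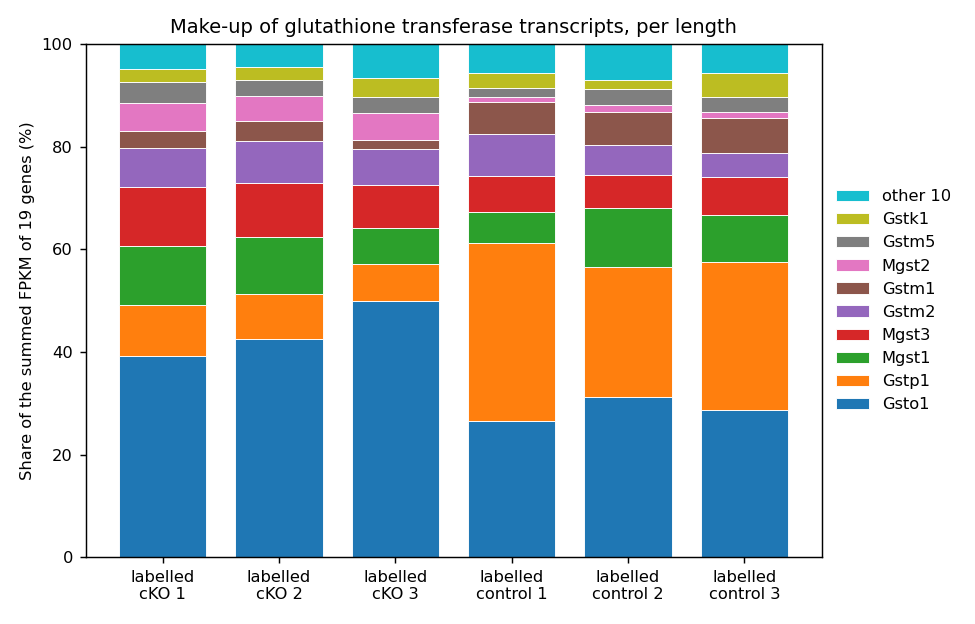
Share of each glutathione transferase in the summed FPKM of all 19, by library, with the libraries labelled cKO on the left. The orange Gstp1 band takes 7.33% to 9.79% in the libraries labelled cKO, against 25.2% to 34.7% in the controls, and the Gsto1 and Mgst2 bands are wider in the libraries labelled cKO.

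The microsomal transferases are membrane proteins apart in sequence from the soluble ones. Mgst2, which can also make leukotriene C4, reached 22.0, 18.8 and 26.9 FPKM in the libraries labelled cKO, against 3.73, 5.70 and 4.24 FPKM in those labelled control. Every library labelled cKO lay above every control. The difference was 2.09 (SE 0.21, limma adjusted p = 0.00151), with means 4.95-fold apart. The window printed for Mgst2 held neither motif. Mgst3 stood at 47.2, 40.4 and 42.9 FPKM in the cKO-labelled libraries, against 24.7, 27.7 and 29.5 FPKM in the control-labelled ones. The groups were apart (0.66, SE 0.14, adjusted p = 0.0154), and the call was lost without cKO 1 (0.0666) or control 2 (0.0535). Mgst1, the member that protects membranes from peroxides, did not pass, at 48.3, 42.3 and 34.9 FPKM in the cKO-labelled libraries, against 21.7, 49.0 and 36.6 FPKM in the control-labelled ones (0.28, SE 0.28, adjusted p = 0.517). Within a library, the ratio of Mgst2 to Mgst3 was 0.466, 0.465 and 0.626 in the libraries labelled cKO, against 0.151, 0.206 and 0.144 in the controls.

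Mu class genes lie side by side on chromosome 3, and 1 of the 4 tested was called, beside 19.5% of all genes tested. Gstm1 was at 14.4, 15.2 and 9.56 FPKM in the libraries labelled cKO, against 21.7, 27.5 and 27.6 FPKM in those labelled control. It was lower throughout (-0.94, SE 0.21, limma adjusted p = 0.0191). Its call was lost without control 2 (0.0761) or control 3 (0.0717) and in limma-voom with median of ratios (0.0516). Gstm2, its neighbour, stood at 31.5, 30.8 and 34.8 FPKM in the cKO-labelled libraries, against 29.3, 24.8 and 19.1 FPKM in the control-labelled ones. It lay above the controls without passing (0.41, SE 0.18, adjusted p = 0.143). The ratio of Gstm2 to Gstm1 was 2.19, 2.03 and 3.64 in the libraries labelled cKO, against 1.35, 0.902 and 0.693 in the controls. Gstm5 averaged 14.9 ± 2.55 FPKM in the libraries labelled cKO and 10.3 ± 3.59 FPKM in those labelled control (adjusted p = 0.207). Gstm4 averaged 2.52 ± 0.741 FPKM in cKO-labelled and 1.82 ± 0.746 FPKM in control-labelled libraries (adjusted p = 0.410). Gstm7, which was not tested, was at 0.332, 0 and 0.274 FPKM in the libraries labelled cKO, where a count of 0 allows up to 0.0579 FPKM, and 0.499, 1.87 and 1.36 FPKM in those labelled control. Sequences of this class are alike, so fragments may be split between its members in ways the values do not show.

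Theta class genes lie together on chromosome 10, and 1 of the 2 tested was called, beside 19.5% of all genes tested. Gstt3 had 276, 287 and 432 fragments in the libraries labelled cKO and 134, 56 and 0 in those labelled control. That is 4.35, 4.47 and 6.36 FPKM in the cKO-labelled libraries, against 2.25, 0.898 and 0 FPKM in the control-labelled ones, where a count of 0 allows up to 0.0485 FPKM. The groups were apart and the controls differed widely among themselves (1.71, SE 0.41, limma adjusted p = 0.0268). The call was lost without cKO 1 (0.0563), cKO 2 (0.0606), cKO 3 (0.0624), control 2 (0.0789) or control 3 (0.0529), and with pseudocounts of 0.1 (0.0803) and 0.01 (0.148). It was also lost in limma-voom (0.0825) and in limma-voom with median of ratios (0.0783). Gstt1, which was not tested, had 4, 0 and 9 fragments in the libraries labelled cKO and 38, 104 and 18 in those labelled control. Its level was 0.109, 0 and 0.229 FPKM in the libraries labelled cKO, where 0 allows up to 0.0809 FPKM, and 1.10, 2.89 and 0.504 FPKM in those labelled control. Control 2, which carried hepatocyte transcripts, was the highest for Gstt1, and the groups stayed apart without it. Gstt2 averaged 1.42 ± 0.273 FPKM in the libraries labelled cKO and 2.22 ± 0.654 FPKM in those labelled control (SD, n = 3, adjusted p = 0.273).

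The alpha, kappa and second omega genes did not pass or were not tested. Gsta3, an abundant liver transferase, measured 1.26, 0.847 and 1.28 FPKM in the libraries labelled cKO and 0.0583, 8.24 and 0.524 FPKM in those labelled control. Control 2 was far above all others and the remaining controls were below every library labelled cKO (-0.22, SE 0.72, adjusted p = 0.861). Without control 2 its mean fell under 1 FPKM and no test was made. Gsta2 averaged 10.7 ± 6.50 FPKM in the libraries labelled cKO and 6.76 ± 2.12 FPKM in those labelled control (adjusted p = 0.393). Gsta4, which clears the lipid peroxidation product hydroxynonenal, averaged 1.95 ± 0.858 FPKM in cKO-labelled and 3.45 ± 1.27 FPKM in control-labelled libraries (adjusted p = 0.235). Gstk1, of mitochondria and peroxisomes, averaged 12.7 ± 5.05 FPKM in cKO-labelled and 12.2 ± 6.06 FPKM in control-labelled libraries (adjusted p = 0.890). Gsto2, beside Gsto1 on chromosome 19, averaged 0.180 ± 0.222 FPKM in the libraries labelled cKO and 0.314 ± 0.0800 FPKM in those labelled control, at 1 to 24 fragments a library.

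**Figure D4:**
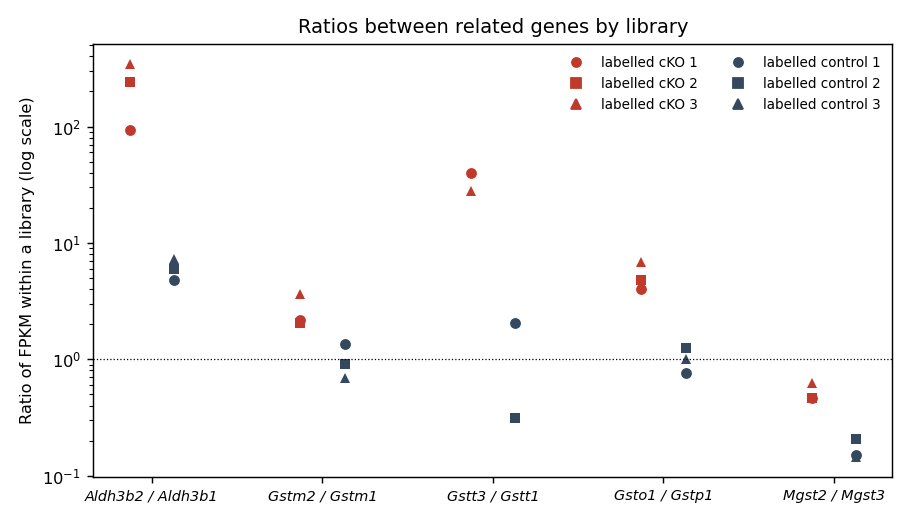
Ratio of FPKM between related genes within each library, on a log axis, with the libraries labelled cKO left of those labelled control. The groups do not overlap in any of the 5 pairs, which were chosen after their values were seen. In every pair but Mgst2 and Mgst3, the first gene was higher and the second lower without overlap, so these ratios could not overlap. Points with a count of 0 (Gstt1 in cKO 2, Gstt3 in control 3) are left out.

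Of 3 glucuronidation genes tested 2 were called higher (66.7%, beside 5.87% of all genes tested), at low levels. Ugt1a1, which conjugates bilirubin, reached 4.18, 4.71 and 4.17 FPKM in the libraries labelled cKO, against 1.37, 1.94 and 1.10 FPKM in those labelled control. Both groups were tight and apart (1.13, SE 0.21, limma adjusted p = 0.0112), and the call was lost without cKO 2 (0.0527). Ugt1a7c, which acts on phenols, was at 2.69, 3.17 and 3.35 FPKM in the libraries labelled cKO and 0.327, 0.202 and 0.667 FPKM in those labelled control. The libraries labelled cKO held 298, 356 and 397 fragments, against 34, 22 and 72 in the controls (1.55, SE 0.23, adjusted p = 0.00455). Its means were 7.70-fold apart, above the 7.53 of Cyp2w1. Ugt1a6a, the third enzyme of this locus tested, stood at 1.93, 2.33 and 3.68 FPKM in the cKO-labelled libraries, against 1.91, 1.17 and 1.54 FPKM in the control-labelled ones, which barely separated the groups (0.50, SE 0.25, adjusted p = 0.202).

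The Ugt1a genes on chromosome 1 each join their own first exon to shared later exons, so fragments of the shared exons cannot be given to 1 gene, and how they were counted is not given in the sources used here. Ugt1a6b, a further gene of the locus, averaged 0.877 ± 0.323 FPKM in the libraries labelled cKO and 0.699 ± 0.501 FPKM in those labelled control. Sult1a1, a sulfotransferase of phenols whose gene model overlaps Slx1b in GRCm38, was not tested. It was at 0.467, 0.695 and 0.0975 FPKM in the libraries labelled cKO and 0, 1.50 and 0.400 FPKM in those labelled control, with the hepatocyte-bearing control 2 highest. A count of 0 allows up to 0.0223 FPKM in control 1.

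The receptor pair did not pass the test. Ahr, the ligand-binding subunit, measured 25.2, 22.7 and 20.3 FPKM in the libraries labelled cKO and 27.3, 33.4 and 27.8 FPKM in those labelled control. The groups were narrowly apart, with the libraries labelled cKO lower (-0.36, SE 0.15, limma adjusted p = 0.133). Arnt stood at 21.9, 22.1 and 14.4 FPKM in the cKO-labelled libraries, against 22.2, 25.6 and 29.6 FPKM in the control-labelled ones, again with little space between the groups (-0.40, SE 0.20, adjusted p = 0.203). After scaling by the median of ratios these differences were -0.15 and -0.19. Tiparp, a target of the receptor that also restrains it, fell to 15.5, 15.3 and 11.0 FPKM in the libraries labelled cKO, against 29.7, 27.2 and 33.9 FPKM in those labelled control. The groups were far apart (-1.08, SE 0.18, adjusted p = 0.00699). Ahrr, the repressor that the receptor induces, was not tested, with 11, 10 and 8 fragments in the libraries labelled cKO and 46, 60 and 99 in those labelled control, without overlap.

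A list of 68 further genes of the pathway was set beside these, of which 57 were tested, with a median difference of -0.01. Of the 57, 11 were called higher (19.3%) and 8 lower (14.0%), beside 5.87% and 13.6% of all genes tested. The share called lower was thus near that of all genes. Among genes that make, reduce or degrade glutathione or supply NADPH, 4 of 12 tested were called higher (33.3%) and 1 lower (8.33%). Me1, which supplies NADPH, rose to 18.3, 14.8 and 15.7 FPKM in the libraries labelled cKO, against 2.51, 4.58 and 5.16 FPKM in those labelled control (1.80, SE 0.24, limma adjusted p = 0.00349). G6pdx, the first enzyme of the pentose phosphate pathway and another source of NADPH, was at 31.7, 31.3 and 42.6 FPKM in the cKO-labelled libraries, against 18.2, 16.7 and 17.5 FPKM in the control-labelled ones (0.96, SE 0.16, adjusted p = 0.00748). Neither gene's groups overlapped. Chac2, which degrades glutathione, averaged 4.57 ± 0.513 FPKM in the libraries labelled cKO and 1.63 ± 1.03 FPKM in those labelled control (1.16, SE 0.31, adjusted p = 0.0372), and this call was lost without any library other than control 1, at up to 0.0972. Gclc, the catalytic subunit of the rate-limiting ligase of glutathione synthesis, fell, at 19.5, 22.8 and 12.0 FPKM in the cKO-labelled libraries, against 35.7, 31.0 and 34.0 FPKM in the control-labelled ones. The groups were apart (-0.90, SE 0.23, adjusted p = 0.0320), and the call was lost without cKO 1 (0.0588), control 1 (0.0856), control 2 (0.0799) or control 3 (0.0932). The remaining call was Gsr, glutathione reductase, higher at adjusted p = 0.0402 and lost without cKO 1 (0.105), cKO 2 (0.140), control 1 (0.0884) or control 2 (0.129).

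Of 13 other genes of conjugation and its supply, 4 were called higher (30.8%) and 2 lower (15.4%), beside 5.87% and 13.6% of all genes tested. Sult5a1, a sulfotransferase, averaged 21.6 ± 5.56 FPKM in the libraries labelled cKO and 6.12 ± 0.812 FPKM in those labelled control (1.64, SE 0.22, limma adjusted p = 0.00320). Ptgr1, a reductase of prostaglandins and of unsaturated aldehydes, averaged 29.6 ± 10.3 FPKM in cKO-labelled and 10.3 ± 1.95 FPKM in control-labelled libraries (adjusted p = 0.00920). Hpgds, a glutathione-dependent prostaglandin D synthase of the transferase superfamily, averaged 47.9 ± 16.7 FPKM in cKO-labelled and 19.8 ± 3.16 FPKM in control-labelled libraries (adjusted p = 0.0145, and 0.0574 without control 3). Sult2b1, the cholesterol sulfotransferase of skin, also passed (adjusted p = 0.0384), and was lost without cKO 1 (0.0683), control 1 (0.0981), control 2 (0.0749) or control 3 (0.110). The 2 that fell were Ugdh, which makes UDP-glucuronic acid, the donor for the Ugt1a enzymes, and Ugp2, which makes its precursor UDP-glucose. Ugdh averaged 15.3 ± 3.93 FPKM in the libraries labelled cKO and 29.3 ± 3.69 FPKM in those labelled control (-0.92, SE 0.21, adjusted p = 0.0235), lost without control 2 (0.0687) or control 3 (0.0843). Ugp2 averaged 29.8 ± 5.15 FPKM in cKO-labelled and 49.6 ± 4.17 FPKM in control-labelled libraries (-0.73, SE 0.16, adjusted p = 0.0186). Its call was lost under median of ratios scaling (0.127) and quantile normalization (0.0552), and without cKO 1 (0.0669), cKO 2 (0.0675) or control 2 (0.0743).

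Among 16 other oxidoreductases tested, 2 were called higher (12.5%) and 2 lower (12.5%), beside 5.87% and 13.6% of all genes tested. Aldh2, the mitochondrial aldehyde dehydrogenase, averaged 69.8 ± 5.80 FPKM in the libraries labelled cKO and 38.3 ± 6.78 FPKM in those labelled control (0.86, SE 0.16, limma adjusted p = 0.0102). Cyp4f39, a fatty acid hydroxylase of mouse epidermis, averaged 37.3 ± 20.1 FPKM in cKO-labelled and 9.51 ± 3.32 FPKM in control-labelled libraries (1.80, SE 0.37, adjusted p = 0.0158, and 0.0594 without control 2). Akr1b8, an aldo-keto reductase, fell to 2.55, 3.27 and 1.38 FPKM in the libraries labelled cKO, against 14.3, 15.0 and 13.2 FPKM in those labelled control. Its means were 5.90-fold apart (-2.20, SE 0.24, adjusted p = 0.00193). Cyp2j6 averaged 3.00 ± 0.482 FPKM in the libraries labelled cKO and 5.69 ± 0.719 FPKM in those labelled control (-0.74, SE 0.20, adjusted p = 0.0375), and its call was lost under median of ratios scaling (0.0735), quantile normalization (0.0862) and without any 1 library. Nqo1, the quinone reductase that both the receptor and NRF2 induce, did not pass, at 1.29, 1.10 and 1.32 FPKM in the cKO-labelled libraries, against 1.10, 0.719 and 1.46 FPKM in the control-labelled ones (0.11, SE 0.23, adjusted p = 0.767).

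Of 6 conjugate exporters tested, 1 was called, lower (16.7%, beside 13.6% of all genes tested). Abcc10 averaged 3.70 ± 0.438 FPKM in the libraries labelled cKO and 8.90 ± 1.18 FPKM in those labelled control (-1.07, SE 0.19, limma adjusted p = 0.00844). Among 10 receptors and sensors tested, 1 was called higher and 2 lower (Tiparp and Maff), beside 5.87% and 13.6% of all genes tested. Rxra, the partner of CAR and of the retinoic acid receptors, averaged 92.6 ± 6.51 FPKM in the libraries labelled cKO and 57.9 ± 6.35 FPKM in those labelled control (0.67, SE 0.13, adjusted p = 0.0130, and 0.0545 without cKO 2). Nr1i3, which encodes CAR, was not tested. It had 0, 2 and 0 fragments in the libraries labelled cKO and 0, 0 and 16 in those labelled control. Maff, a small MAF protein, averaged 3.26 ± 0.452 FPKM in cKO-labelled and 10.3 ± 4.99 FPKM in control-labelled libraries (-1.33, SE 0.30, adjusted p = 0.0212). Control 1, which was high in immediate-early genes, held the highest Maff value, 16.1 FPKM, and the call was lost without cKO 2 (0.0594). Nfe2l2, which encodes NRF2, averaged 14.6 ± 6.47 FPKM in cKO-labelled and 16.4 ± 5.93 FPKM in control-labelled libraries (-0.18, SE 0.34, adjusted p = 0.746), and its sign was not the same under median of ratios scaling, at 0.04.

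Across the 43 genes, 7 were called without each library in turn and under every other alternative that gave them a value. These were Cyp2w1, Aldh3b2, Mgst2 and Ugt1a7c among the genes that rose and Gstp1, Ephx1 and Aldh3b1 among those that fell. The other 9 calls were lost without at least 1 library.

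**Figure D5:**
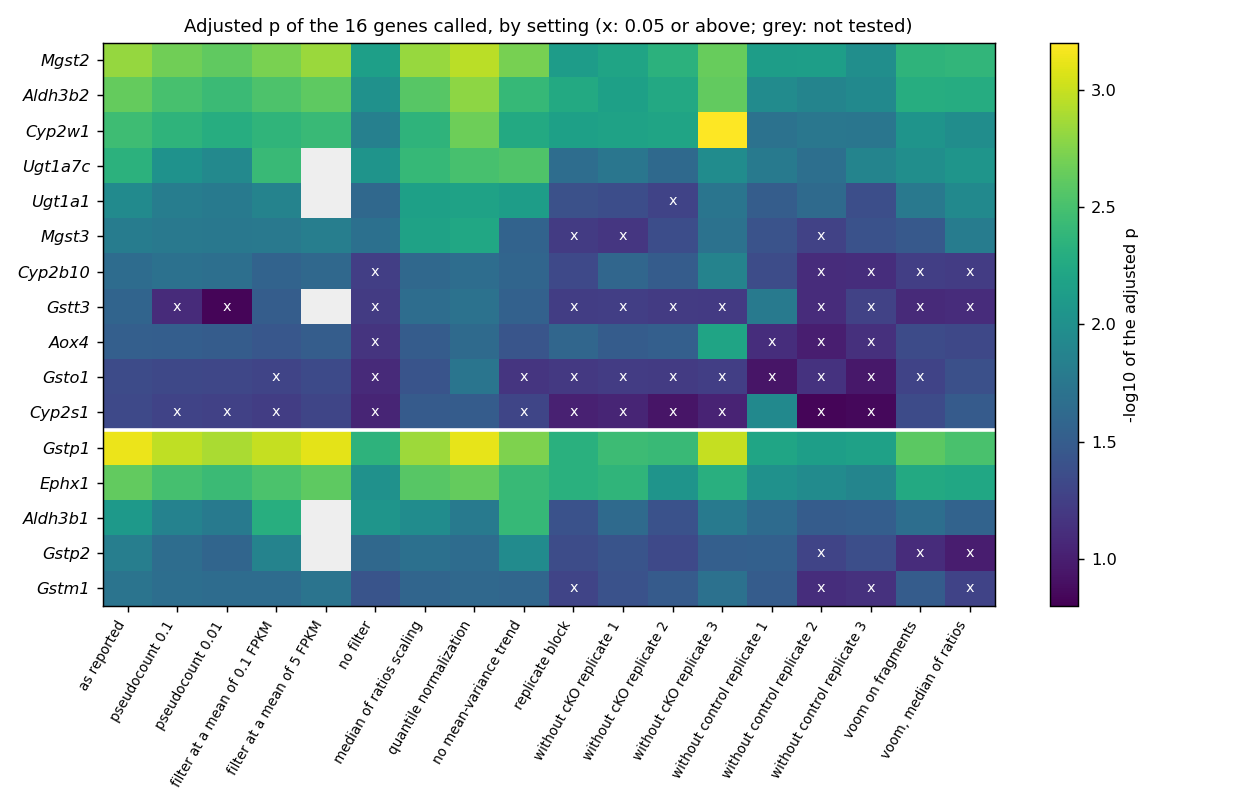
Adjusted p of the 16 called genes as reported and under 17 alternatives, on a -log10 colour scale, with the genes called higher above the white line and those called lower below it. Crosses mark adjusted p of 0.05 or above and lie in the rows of 9 genes, most of them in those of Cyp2s1, Gsto1 and Gstt3.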

How the data were processed

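RNA-seq covered 6 libraries of sorted epidermal cells, 3 labelled cKO and 3 labelled control. The authors deposited 1 table of FPKM values, per the file headers, made on build GRCm39 with fastp, HISAT2 and HTSeq per the submitters' processing notes. Their versions, the annotation release, any gene filter and the strand setting were not given in the sources used here. Groups and replicate numbers came from the labels, and the columns were tied to them by names that the labels give.

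In low genes, FPKM moved in steps of 1 fragment. Whole fragments were recovered for 17024 of 17025 genes within a relative tolerance of 1e-09, and gave the library totals. The closest libraries, cKO 1 and 2, differed by a chi-square per gene of 14.4, more than counting noise, whereas cKO 3 differed from them by 244 and 239. Whether 2 libraries came from 1 animal is not settled by this. Limits given for a count of 0 are 3 fragments.

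Genes averaging 1 FPKM or more were tested on log2(FPKM + 1), which understates the change of low genes, with limma 3.58.1 in R 4.3.3. Group was the only term and the prior variance followed a trend. The p-values were adjusted by Benjamini-Hochberg over all 11603 genes tested. Intervals are at 95%. The fit was tested on simulated data.

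The 43 genes, the lists beside them and the marker lists were chosen with earlier results of these data known. Named are all 43 genes, with values in every library for those called and for the 3 most abundant of each class. Of the 68 further genes, those named are the 3 calls with the smallest adjusted p in each direction of each sublist, plus Ahrr, Tiparp, Nqo1 and Nfe2l2. Gsr, Sult2b1, Nr1i3, Ugt1a6b, Aldh3b3 and the gene pairs were added after their values were seen. Start regions and chromosomes came from RefSeq on GRCm38.p6, another build than that of the values. Alternatives were other pseudocounts (0.1, 0.01), filters (0.1 and 5 FPKM, none) and scalings, no variance trend, a replicate block, each library left out and, added after the data were seen, limma-voom on the recovered fragments with 2 scalings.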

Additional observations from a re-analysis of the deposited data

How the results depend on the processing

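Over 17 alternatives, 2 of them added after the data were seen, the 35 genes tested gave 582 values. Of these 516 kept direction and side of the threshold, 52 lost a call, 1 gained a call (Cbr1) and 13 changed sign. The cause of these changes was not tested. The count of enzymes called higher, 11, was 6 with no filter and 5 to 9 with 1 library left out, lowest without control 2. That called lower, 5, was 3 with the 5 FPKM filter, which leaves fewer genes, 3 in limma-voom with median of ratios, and 3 to 5 with 1 library left out. Over all genes, 681 were called higher, against 1044 with median of ratios, 1028 with quantile normalization and 393 to 713 with 1 library left out. Lower were 1576, against 1001 with median of ratios, 1034 in limma-voom with median of ratios and 710 to 1453 with 1 library left out. Further pathway genes numbered 7 to 10 higher and 4 to 7 lower with 1 library left out, against 11 and 8. The log2 difference of Ash2l ranged from 0.67 to 0.94 with 1 library left out.

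Deviations of libraries with the same number correlated at -0.31, 0.08 and -0.26, and cKO 1 did not correlate best with control 1, so the numbers were not taken as pairs. With the replicate block, 7 enzymes were called higher, 1 of them a glutathione transferase, 432 genes higher and 893 lower, 4 further pathway genes lower, and Ash2l had 0.81 at limma adjusted p = 0.0613.

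Among the genes named, signs turned for 7 that were not called. Gsta3 was 0.37 and 0.74 with pseudocounts of 0.1 and 0.01, and 0.70 and 0.90 in limma-voom without and with median of ratios. Nfe2l2 was 0.04 with median of ratios, 0.01 with quantile normalization, 0.00 in limma-voom with median of ratios and -0.50 to 0.07 with 1 library left out. With 1 library left out, Gstk1 ranged from -0.20 to 0.44, Mgst1 from -0.03 to 0.54, Cbr2 from -0.42 to 0.43, Por from -0.04 to 0.51 and Nqo1 from -0.03 to 0.23. The planned quasi-likelihood count models on the recovered fragments, with 2 scalings, were not run.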
